A study of Drosophila melanogaster with 2 samples.

Results

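The isolated autosomal STAT92E peaks are the peaks of the deposited ChIP-Seq list that lie on chromosome arms 2L, 2R, 3L, 3R or 4 and have no other listed peak of the same chromosome within 50000 bp. The distance was measured from the end of one peak to the start of the next. The members were chosen by the positions at which peaks were called, so their spacing is a result of the rule and not a finding. By this rule 327 of the 991 peaks on the autosomal arms were isolated (33.0%), out of 1487 peaks in the whole list. The other 664 autosomal peaks are those with at least 1 listed neighbour within the limit.

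The list came from 1 ChIP library and 1 input library. Both were made from adult Drosophila intestines of the genotype esgts>Upd and STAT92E in a W1118 background, kept at 29℃ for 10 days. The list names its read columns by the letters M and I only. They are read here as mouse antibody (ChIP) and input, which the labels do not spell out. In the ChIP library the chromatin of about 400 pooled midguts was precipitated with a mouse antibody against STAT92E. In the input library no antibody was used. Both groups therefore carry the overexpressed ligand and the overexpressed factor, and no library of normal signaling is part of the comparison. The driver esgts is active in midgut progenitor cells, while the chromatin came from whole midguts. A peak with few reads can thus come from few cells or from weak occupancy in many cells, and the list does not tell these apart. The total number of reads per library is not in the list, so the depth is unknown, and with 1 library of each kind no value carries an error between experiments.

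The JAK/STAT pathway of Drosophila starts with Upd ligands, which bind the receptor Domeless and activate the kinase Hopscotch. Hopscotch phosphorylates STAT92E, the only STAT protein of the fly, which then enters the nucleus and binds DNA at short palindromic sites. In the adult midgut the pathway controls the proliferation of intestinal stem cells and the differentiation of their daughters. Target genes such as Socs36E carry several bound sites near each other, and a peak that stands alone is the other case that a peak list can hold.

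The isolated peaks had medians close to those of the other autosomal peaks and lower maxima. Their median length was 140 bp, and so was that of the other autosomal peaks. The quartiles were 115 and 170 bp in the isolated peaks and 120 and 180 bp in the others. The longest isolated peak had 340 bp, whereas 9 of the other 664 peaks were longer than this, up to 5210 bp at hyd, an E3 ubiquitin ligase gene. Without the hyd peaks the longest of the others had 510 bp. At the short end, 49 isolated peaks (15.0%) had 100 bp, the smallest length of the list, against 71 of the others (10.7%). Peaks of 200 bp or more made up 14.4% of the isolated and 18.2% of the other peaks.

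The signal in a peak is given as normalized reads, which the authors scaled between the libraries. The median isolated peak held 60.1 normalized ChIP reads, with quartiles of 41.5 and 87.5. The median of the other autosomal peaks was 58.0, with quartiles of 39.8 and 85.8. Thus the medians were 2.09 reads apart, far less than the distance between the quartiles of either set. In the input the median was 0.327 normalized reads in the isolated peaks and 0.327 in the others. No input read at all was found in 93 isolated peaks (28.4%) and in 206 of the others (31.0%).

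At the upper end the autosomal sets parted, though on few peaks. The hyd locus made up most of this in the highest and the summed reads, but not in the share of peaks over 200 reads. The X chromosome, described below, did not show the same order. More than 200 normalized ChIP reads were found in 5 isolated peaks (1.53%) and in 30 of the others (4.52%). More than 1000 were found in none of the isolated peaks and in 5 of the others, 4 of them at hyd. Without the hyd peaks, 26 of the others (3.94%) had more than 200. The isolated peak with the most reads held 627, against 135371 at hyd and at most 1420 in the others without the hyd peaks. The isolated peaks together made up 30.4% of the length of all autosomal peaks and 8.10% of their ChIP reads. This gap came from 4 peaks at hyd, which alone held 74.0% of the autosomal ChIP reads. Without the hyd peaks the isolated peaks had 31.2% of the reads. The length share of 30.4% still includes the hyd peaks, so it cannot be set beside this read share. The mean was 71.6 ± 53.7 (SD over 327 peaks) against 78.3 ± 92.0 in the remaining 660. Also without the hyd peaks, the summed ChIP reads were 99.2 times the summed input reads in the isolated peaks and 96.9 times in the others.

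**Figure D1:**
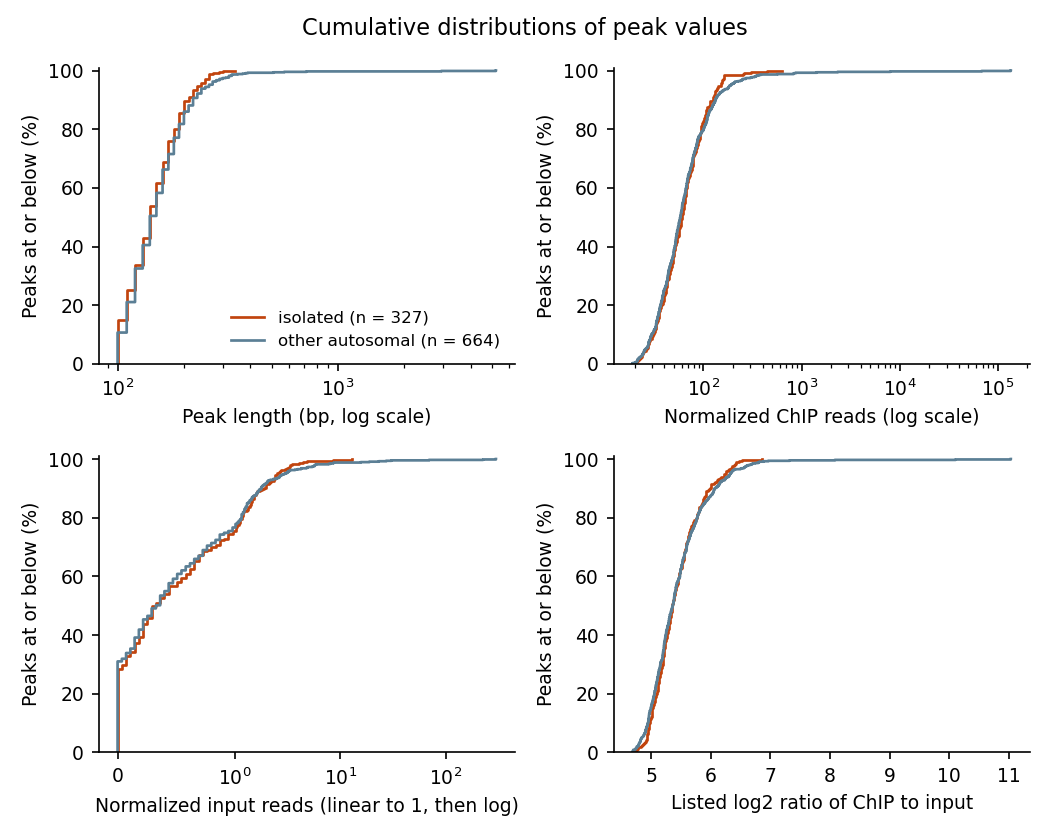
Cumulative share of peaks (%) by length (bp), normalized ChIP reads, normalized input reads and the listed log2 ratio, for 327 isolated peaks and 664 other autosomal peaks. The curves run together through the middle and part at the upper end, where isolated peaks stop at 340 bp and 627 ChIP reads.

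Each peak also has a listed log2 ratio, the highest that ChIP over input reached inside it. This ratio had a median of 5.36 in the isolated peaks and 5.36 in the other autosomal peaks, and a 90th percentile of 5.97 and 6.07. It reached 6.86 in the isolated peaks and 11.03 in the others, or 7.32 in the others without the hyd peaks. The rank in the list followed this ratio in every peak named here, so it repeats the ratio and is not a second measure. The isolated peaks ranked from 23 to 1486 of 1487. The first 10% of the list held 26 of them (7.95%) and 65 of the others (9.79%), and the last 10% held 21 (6.42%) and 64 (9.64%). The isolated share in the first 10% had an interval across peaks of 5.48% to 11.4%. This includes the 9.95% of all listed peaks, so the first 10% does not set the isolated peaks apart. On the X chromosome the order was opposite, with 14.3% of the isolated and 6.38% of the other peaks in the first 10%. The lower isolated share in the last 10% is given without an interval, so it is a description only.

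The ratio was also formed from the reads of the whole peak, with 1 normalized read added to both libraries. It was at least 32 in 245 isolated peaks (74.9%) and in 484 of the others (72.9%). Over the complete list 73.3% of the peaks passed this limit, so the share in the isolated peaks was near the background. With 0.5 read added, 99.1% of the isolated and 99.1% of all listed peaks passed. When the rule was applied again to the peaks with an FDR of 0, 94.1% of the isolated and 94.1% of all listed peaks passed, and among those with a log2 ratio of at least 5, 84.1% and 85.8%. The listed log2 ratio was at least 5 in 87.8% of the isolated and 84.3% of all listed peaks. The smallest Poisson p-value of a peak is listed as -log10 and is capped at 100. This cap was reached by 81 isolated peaks (24.8%) and by 193 of the others (29.1%). The listed false discovery rate was 0 for 241 isolated peaks (73.7%) and for 469 of the others (70.6%), and its largest value, 0.00202, was given to 37 (11.3%) and 97 (14.6%).

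**Figure D2:**
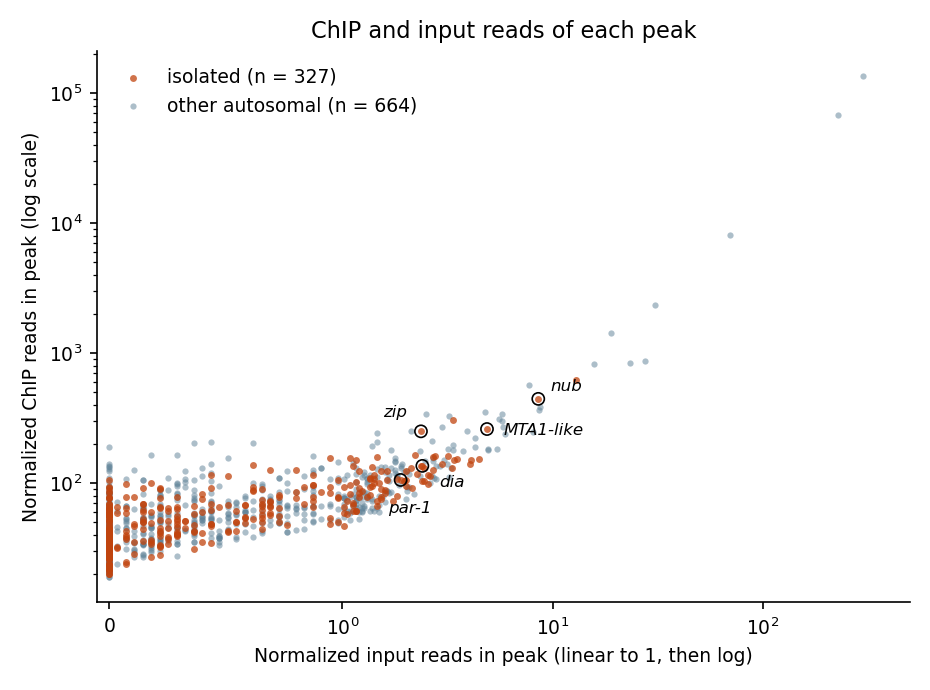
Normalized ChIP reads (log scale) against normalized input reads (linear to 1, then log) for each of 327 isolated and 664 other autosomal peaks, with the 5 isolated peaks that carry a gene name circled. Isolated peaks lie within the cloud of the others and end at 627 ChIP and 13.0 input reads.

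The input was low in nearly all isolated peaks. The read columns run in steps, of 0.0625 in the ChIP and 0.0364 in the input. It was assumed that 16 steps make 1 read, which the list does not state. By this weight 1 input read is 0.582 normalized reads, and 3 input reads correspond to 1.75 normalized reads. In 292 isolated peaks (89.3%) the input was at or under this level, and in 35 (10.7%) it was above. In the other peaks the shares were 89.6% and 10.4%. A fold enrichment is given below as the ratio of normalized reads with an exact 95% counting interval, or, where no input read was found, as a lower bound against 3 input reads, the number that a count of 0 allows. Intervals cover counting error only, the bound leaves out the counting error of the ChIP reads, and reads that are copies of 1 molecule were not recognised.

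Gene names and gene parts were taken from the study's own annotation of selected peaks. Of 55 autosomal peaks that carry such a name, 5 were isolated (9.09%), against 33.0% of all autosomal peaks. The named peaks are a selection, and peaks of a gene with several close peaks cannot be isolated by the rule, so this share says nothing about the remaining 322 isolated peaks. The 5 named peaks belong to nub, zip, MTA1-like, dia and par-1. Of the 5 isolated peaks with over 200 ChIP reads, 3 are among them.

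Nubbin (nub, Dmel_CG34395), also known as Pdm1, encodes a POU domain transcription factor that marks the absorptive enterocytes of the midgut. Its isolated peak was on 2L from 12590590 to 12590819, in the first intron. It held 446 normalized ChIP reads against 8.55 input reads, a 52.2-fold enrichment (31.1 to 94.6). With a log2 ratio of 5.92 it ranked 208 in the list, but it had the second most ChIP reads of all isolated peaks. Its nearest listed peaks were 59541 bp and 69551 bp away, and its summit was 87.5 bp from the peak centre, toward higher coordinates.

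Zipper (zip, Dmel_CG15792) encodes the heavy chain of non-muscle myosin II, the motor of contractile actin structures. The peak on 2R from 20889520 to 20889749, in the fourth intron, held 251 normalized ChIP reads against 2.36 input reads. This is a 106-fold enrichment, with a wide interval of 41.2 to 387 because the input corresponds to 4.06 reads. Its log2 ratio of 6.86 was the highest of the isolated peaks, and it ranked 23 in the list. The next listed peak was 59381 bp away toward higher coordinates, and the nearest on the other side was 304661 bp away.

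MTA1-like (Dmel_CG2244) is the fly relative of the MTA proteins, subunits of the NuRD chromatin remodelling complex. Its peak on 3R from 1470500 to 1470749, in the second intron, held 261 normalized ChIP reads against 4.87 input reads (53.6-fold, 27.2 to 123). It had the fourth most ChIP reads of the isolated peaks, with a log2 ratio of 5.54 and rank 510. The nearest listed peak was 116841 bp away.

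Diaphanous (dia, Dmel_CG1768) encodes a formin that nucleates actin filaments and is needed for cytokinesis. Its peak on 2L from 20763440 to 20763599, in coding sequence, held 136 normalized ChIP reads against 2.40 input reads (56.7-fold, 21.9 to 206). It ranked 391, and its nearest neighbour was 114191 bp away. The kinase gene par-1 (Dmel_CG8201), which acts in cell polarity, had a peak on 2R from 15369770 to 15369929 in the fourteenth intron. This peak held 106 normalized ChIP reads against 1.89 input reads (56.1-fold, 19.4 to 254) and ranked 930. All 5 named peaks had more ChIP reads than 3 in 4 isolated peaks, and all had a listed Poisson value at the cap of 100. Their fold intervals overlap, so the order of their enrichment is not set by these counts.

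The isolated peak with the most ChIP reads carries no gene name here. It was on 3R from 4183810 to 4184049, with 627 normalized ChIP reads against 13.0 input reads (48.3-fold, 31.7 to 77.4), a log2 ratio of 5.70 and rank 358. It also had the most input of all isolated peaks, so that it led by reads and not by ratio. The third most reads, 308, were found on 3R from 12962930 to 12963189, with 3.35 input reads (92.0-fold, 41.1 to 259.5) and rank 55. This peak was far from others, with its nearest neighbour 192471 bp away. These were the only peaks besides those at nub, MTA1-like and zip with over 200 ChIP reads. The 5 isolated peaks with the most input reads included both of the largest, at nub and on 3R, and MTA1-like. The remaining members of this group were on 2R from 14075020 to 14075189, with 155 ChIP reads against 4.47 input reads, and on 2L from 2169710 to 2169809, with 151 against 4.07. Both ranked low, at 1388 and 1406.

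By the listed log2 ratio, zip was followed by a peak on 2L from 5524090 to 5524269 with a ratio of 6.52. It held 99.2 normalized ChIP reads and 0.0727 normalized input reads, less than the weight of 1 read. The third was on 3R from 2568940 to 2569169, with 139 ChIP reads against 0.618 input reads, a ratio of 6.48. The fifth, on 3L from 13852030 to 13852219, held 115 ChIP reads against 0.436 input reads, with a ratio of 6.43. These inputs are too low to set the size of the enrichment. All of these ranked between 23 and 57. The 5 lowest ratios of the isolated peaks ran from 4.69 to 4.78, at ranks 1456 to 1486. In 4 of these peaks there was no input read and the ChIP reads ranged from 20.2 to 23.9, so that the low ratio went with few ChIP reads. The exception was a peak on 3R from 11419130 to 11419229, with 73.0 ChIP reads against 1.75 input reads. The lowest ratio of the other peaks and of the whole list was also 4.69, so the list holds no peak below this level.

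Length, reads and ratio moved together in both sets. Across the isolated peaks Spearman's rho between length and ChIP reads was 0.61, and across the other autosomal peaks 0.62. Between ChIP reads and the listed ratio it was 0.44 across the 327 isolated peaks and 0.56 across the 664 others. These are descriptions across peaks of the same libraries, which share the calling and the scaling. The longest isolated peak was on 3R from 25025480 to 25025819, with 340 bp, 157 ChIP reads against 0.945 input reads and rank 115. Next came a 300 bp peak on 2L from 11921240 to 11921539, with 152.0 ChIP reads against 1.16 input reads and a ratio of 5.84. Of the 100 bp peaks, the one with the most ChIP reads was the peak on 2L that starts at 2169710. It was followed by a peak on 3L from 85490 to 85589, with 114 ChIP reads against 2.62 input reads, and by one on 2L from 3581100 to 3581199, with 99.0 against 2.55. Short peaks could thus hold many reads, but these 3 ranked only between 1294 and 1406.

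The distance to the nearest listed peak had a median of 90821 bp in the isolated peaks and 14701 bp in the others, as the rule requires. For 190 isolated peaks the nearest neighbour was within 100000 bp, and for 137 it was farther. In 182 isolated peaks the nearest neighbour was itself isolated. The most remote peak was on 3R from 3470 to 3569, the first listed peak of this arm, with the next peak 528491 bp away. It held 65.9 ChIP reads against 0.873 input reads and ranked 1039. A peak on 3L from 22847300 to 22847459 was 382491 bp and 567961 bp from its neighbours, with 84.1 ChIP reads against 1.60. The second listed peak of 3R, from 532060 to 532159, followed at 326221 bp, with 95.5 normalized ChIP reads and an input of 3.44 reads before scaling. On 3R the peak from 9899140 to 9899309 was 317591 bp from the nearest one (73.5 against 0.873), and on 2R the peak from 20584720 to 20584859 was 304661 bp away from zip, its nearest (102 against 1.16). None of these 5 peaks had more than 102 ChIP reads, and their ranks ran from 420 to 1277.

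The reads hardly changed with the distance beyond the limit. Isolated peaks with a neighbour between 50000 and 100000 bp had a median of 59.2 ChIP reads (190 peaks). Those with a neighbour at 100000 to 200000 bp had a median of 56.4 (113 peaks), and those farther than 200000 bp had 66.0 (24 peaks). Within the other autosomal peaks the medians were 61.1 for peaks within 1000 bp of the next, 60.5 up to 5000 bp, 59.5 up to 20000 bp and 53.0 up to 50000 bp. The upper end changed more, since the 90th percentile was 288 ChIP reads for peaks within 1000 bp of another, 182 up to 5000 bp and 135 up to 20000 bp. It was 109 for peaks at 20000 to 50000 bp, and in the isolated peaks it was 116, 125 and 120 in the bins of increasing distance. In the closest bin this rests partly on hyd, where 4 intervals of 1 locus lie 91 to 191 bp from the next. Without them the 44 remaining peaks within 1000 bp of another had a median of 57.6, a 90th percentile of 166 and a maximum of 329.9 ChIP reads.

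**Figure D3:**
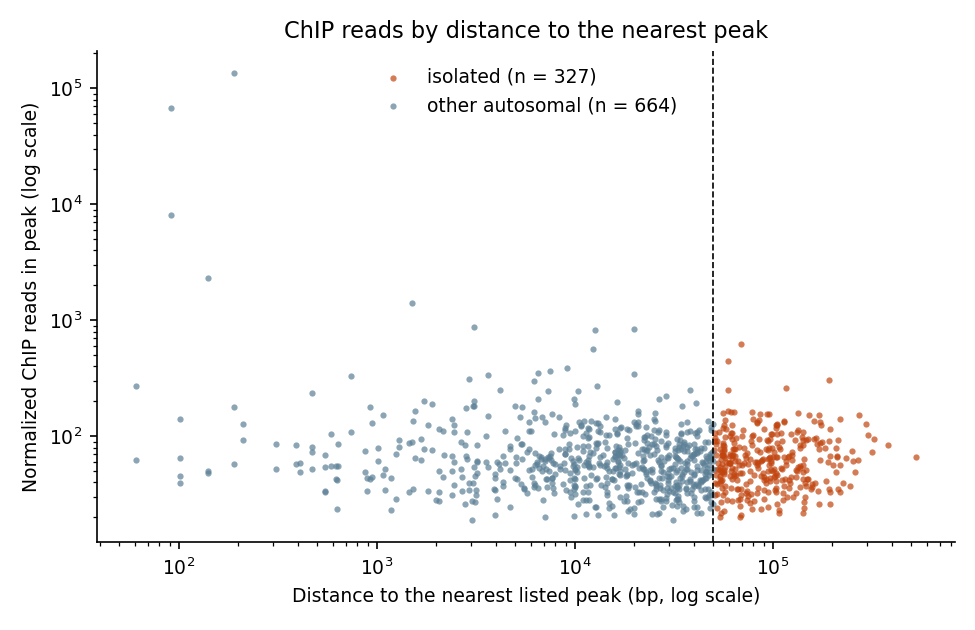
Normalized ChIP reads (log scale) against the distance to the nearest listed peak (bp, log scale), for 327 isolated and 664 other autosomal peaks, with the limit of 50000 bp as a dashed line. The middle of the band has a like height on both sides of the line. Points above 200 reads are a larger share on the left (30 of 664) than on the right (5 of 327). Of the 5 points above 1000 reads, all below 5000 bp, 4 are intervals of hyd.

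The nearest peaks are too few to tell whether the values change at the limit itself. Just inside it were a peak on 2R at 50661 bp from the next one (76.7 ChIP reads) and a pair on 2L at 50891 bp from each other (107 and 31.2). A peak on 3L at 51001 bp (39.7) and a peak on 3R at 51021 bp (50.7) followed. Just outside were the last pair of 2L, 49971 bp apart (61.2 and 127 ChIP reads), another pair on 2L, 49781 bp apart (25.9 and 52.0), and a peak on 3R at 49281 bp (31.2).

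Along the arms the isolated share was lowest on 3L, where 76 of 275 peaks were isolated (27.6%). It was 31.4% on 2L (75 of 239), 35.6% on 3R (95 of 267) and 35.8% on 2R (72 of 201). This order ran opposite to the density of all listed peaks, which was 11.3 per Mb on 3L, 10.7 on 2L, 9.62 on 3R and 9.58 on 2R, as a limit on distance leads to. The number of isolated peaks per Mb was more even, with 3.11 on 3L, 3.34 on 2L, 3.42 on 3R and 3.43 on 2R. Of 100 windows of 1 Mb that held an autosomal peak, 89 held both kinds, 6 held isolated peaks only and 5 held other peaks only. Most windows with an isolated peak thus also held other peaks.

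The isolated peaks formed 134 runs in which no other peak came between them, 56 of them of a single peak. The longest run had 11 isolated peaks, on 2R. The most isolated peaks in 1 window were 8, in the first Mb of 2L, beside 3 other peaks. When peaks within 50000 bp were joined, the 664 other peaks fell into 235 groups, 128 of them pairs, and the largest group had 9 peaks. Of the 10 peaks at the ends of the listed spans, 9 were isolated. Such peaks have a neighbour on 1 side only, which makes isolation more likely by the rule.

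**Figure D4:**
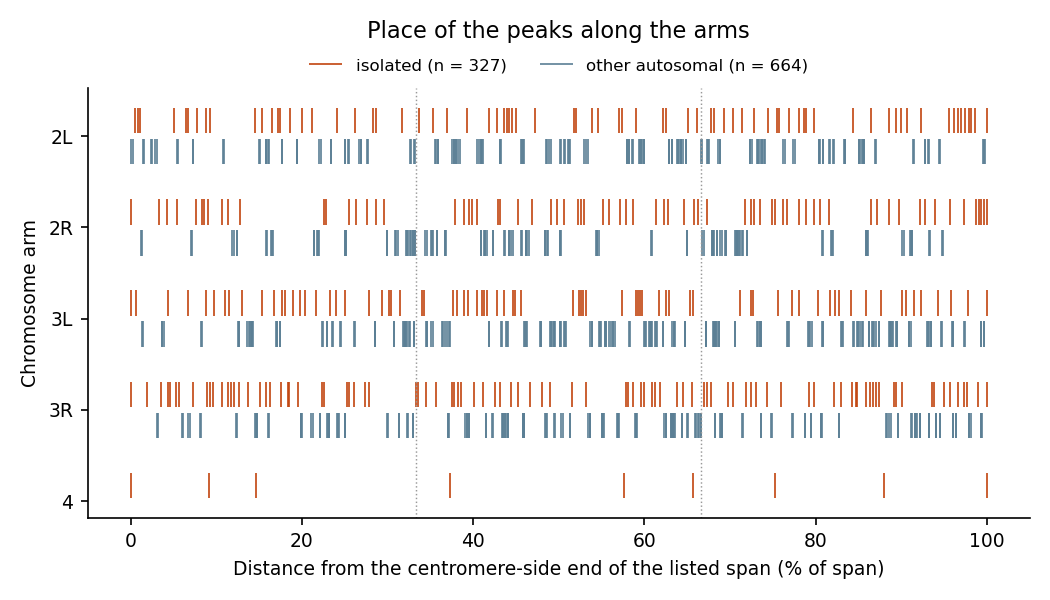
Place of each isolated peak (upper row of each arm) and each other autosomal peak (lower row), as a percent of the span between the first and last listed peak, from the centromere side. Dotted lines mark 3 equal parts, and chromosome 4 holds isolated peaks only.

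To describe the place of the peaks, the span between the first and last listed peak of each arm was cut into 3 equal parts from the centromere side. The sequence of 2L and 3L is numbered toward the centromere, and that of 2R, 3R and 4 away from it. In the part nearest the centromere 99 of 269 peaks were isolated (36.8%). In the middle part this share was 30.2% (112 of 371), and in the part nearest the telomere 33.0% (116 of 351). The middle part held the most peaks of the 3 and had the lowest share of isolated ones, but not the lowest number, and the arms did not share this order. From the centromere outward the share was 41.9%, 29.4% and 37.4% on 3R and 33.3%, 25.8% and 35.7% on 2L, lowest in the middle. It was 33.3%, 35.6% and 37.8% on 2R and 34.7%, 28.8% and 21.2% on 3L, where the middle was not lowest. The median ChIP reads of isolated peaks were 65.9 in the centromere-side part, 56.5 in the middle and 58.4 on the telomere side. In the other peaks these medians were 62.7, 54.0 and 59.1, in the same order.

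Chromosome 4 was the only arm on which every listed peak was isolated, 9 of 9. This small chromosome is largely packed like heterochromatin, yet carries active genes. Its listed peaks were spread over 1.03 Mb at 8.76 per Mb, the lowest density of the autosomal arms, with the nearest neighbour of each between 56021 and 207951 bp away. From the centromere outward the 9 peaks held 91.6, 159, 117, 49.5, 76.5, 132, 51.2, 105 and 44.6 normalized ChIP reads. In the same order the input reads were 0, 1.45, 0.873, 0.582, 0.982, 2.44, 0.291, 0 and 0.145. Their median of 91.6 ChIP reads was above the medians of the isolated peaks of the long arms, which were 63.4 on 2L, 60.4 on 3R, 59.0 on 3L and 53.8 on 2R. The median listed log2 ratio was 5.59 on chromosome 4, against 5.33 to 5.39 on the long arms. The second peak, from 221020 to 221189, ranked 82 with a 109-fold enrichment (33.5 to 663). The peak from 1030730 to 1030949 ranked 64 with no input read, at least 60.2-fold, and the peak from 277210 to 277359 ranked 67. No test was made on these 9 peaks, and 4 of them, with 44.6 to 76.5 reads, were between the quartiles of all isolated peaks.

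On the long arms the isolated peaks resembled each other. The median length was 140 bp on 2L, 2R, 3L and 3R, and 150 bp on chromosome 4. Peaks without an input read made up 26.7% on 2L, 31.9% on 2R, 31.6% on 3L and 25.3% on 3R. In the other peaks of the same arms these shares were 37.2%, 33.3%, 27.1% and 27.9%, so the isolated peaks had the lower share on 2L, 2R and 3R and the higher one on 3L. All isolated peaks with over 200 ChIP reads were on 3R (3), 2L (1) and 2R (1).

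The summit is the position that the authors list as the highest point of a peak. All summits were on a grid of 5 bp. In the isolated peaks the median distance of the summit from the peak centre was 32.5 bp, against 27.5 bp in the others. A summit within 25 bp of the centre was found in 142 isolated peaks (43.4%) and 295 of the others (44.4%), and one more than 50 bp away in 75 (22.9%) and 144 (21.7%). The summit lay toward the lower coordinate in 217 isolated peaks (66.4%) and toward the higher one in 110. In the other peaks 492 (74.1%) were on the lower side and 172 on the higher side. The isolated share of summits on the lower side was below that of the others on 2L (62.7% and 78.7%), 2R (68.1% and 78.3%) and 3L (65.8% and 74.4%). On 3R it was not (69.5% and 66.3%).

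**Figure D5:**
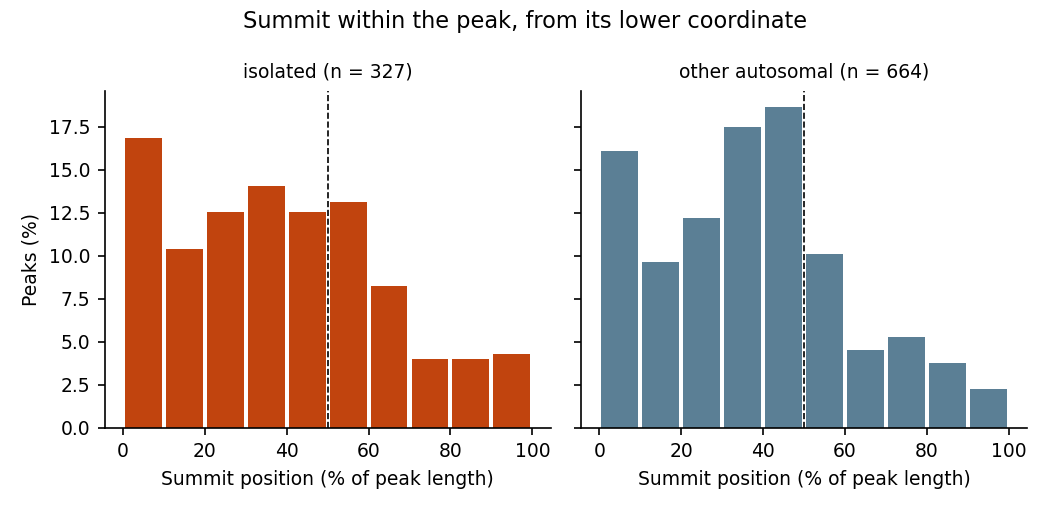
Share of peaks (%) by the position of the summit in 10 equal bins of the peak length, counted from the lower coordinate, for 327 isolated peaks (left) and 664 other autosomal peaks (right), with the middle as a dashed line. The first bin held 16.8% of the isolated and 16.1% of the other summits, and the last bin 4.28% and 2.26%.

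Many summits stood at the very edge. In 41 isolated peaks (12.5%) and 81 others (12.2%) the summit was at the first position of the grid within the peak, 2 bp from the start. At the opposite edge, within 7 bp of the end, were 13 (3.98%) and 14 (2.11%). That window takes in more of the 5 bp grid than the first position alone, so the edges were not counted alike. The longest isolated peak had its summit 142.5 bp from its centre, toward its start. The list also gives inner boundaries of each peak, and the summit lay between them in 36.7% of the isolated and 34.5% of the other peaks. The median distance between the inner boundaries was 26.0 bp in both sets. The summit is thus not a central point of most of these intervals, in either set.

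The X chromosome held 70 isolated peaks among its 211 (33.2%), a share close to that of the autosomal arms. Their median length was 145 bp with 57.6 ChIP reads and a log2 ratio of 5.48. The isolated X peak with the most ChIP reads held 9887, against 627 in the isolated autosomal peak with the most. Among the other X peaks the most was 644. The longest X peaks had 530 bp (isolated) and 310 bp (other). More than 200 ChIP reads were found in 2 isolated X peaks (2.86%) and 3 other X peaks (2.13%). Peaks of 200 bp or more made up 22.9% and 10.6%, and those with a log2 ratio of at least 6 made up 15.7% and 7.09%. On few peaks, this order was opposite to that of the autosomal peaks.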

How the data were processed

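ChIP and input DNA of adult intestines were sequenced by the authors (1 library each). The submitters' processing notes name CASAVA 1.8, Bowtie and the genome build dm3. The peak caller is not given in the sources used here. The authors deposited 1 list of 1487 peaks called on the pair, and positions are given as listed (dm3). It holds normalized reads, a signal scaled by the authors between the libraries, in a column marked M, taken as the ChIP library, and a column marked I, taken as the input. It also holds the deposited largest log2 ratio, the deposited -log10 of the smallest Poisson p, the authors' FDR (a q-value) and the authors' score that orders the list. No column of sample values was left out.

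Peaks were classed by the distance to the nearest listed peak, and values are given as counts, medians and quartiles. Members, gene names and limits were chosen with earlier results of these data known. Peaks named are those with a gene name in the study's annotation, on chromosome 4, nearest the limit, most remote, and at the extremes of ratio, reads and length. Peaks of equal length were ordered by ChIP reads. Fold intervals are exact conditional 95% intervals of the reads at the assumed weight of a read, with parts of reads entered as parts. Where no input read was listed, a lower bound against 3 input reads is given. No test was made, because each group has 1 library and the members come from the same contrast. The classing was tested on simulated data. Python 3.11.15, numpy 2.4.6, pandas 2.3.3, scipy 1.17.1 and matplotlib 3.10.9 were used. Gene symbols were matched to Release 6 records for names only. Sequences were not analysed here, since no genome of the build was used. Alternatives were other distance limits, stricter lists, distances between summits, leaving out chromosome 4, another pseudocount, 2 equal parts of the span and other overlap rules.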

Additional observations from a re-analysis of the deposited data

How the results depend on the processing

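Of 79 alternative values, 64 stayed within the interval of the reported one, or within 1.5 times of a count. These are 95% intervals across the peaks, except for differences of medians, where they are wider. The alternatives reuse the same peaks, so this count is no measure of error between experiments. The number of isolated peaks was set by the distance limit, with 589 (59.4% of the autosomal peaks) at 20000 bp and 137 (13.8%) at 100000 bp. When the rule was applied again to stricter lists, the isolated share was 45.4% among peaks with an FDR of 0 and 39.3% among those with a log2 ratio of at least 5, since fewer neighbours remain. In the named peaks the FDR rose in steps as the log2 ratio fell, so both lists cut the same order and are not separate checks. In these lists the median log2 ratio of isolated peaks was 5.52 and 5.42, and with an FDR of 0 the median ChIP reads were 65.3, as weaker peaks are left out. The share with a ratio of at least 32 was 79.6% at a limit of 100000 bp, 94.1% with an FDR of 0, 84.1% with a log2 ratio of at least 5 and 99.1% with 0.5 read added. Over all listed peaks it was 73.3%, 94.1%, 85.8% and 99.1% in the same order. By the listed log2 ratio, 87.8% were at 5 or more, against 84.3% of all listed peaks. With 2 equal parts of the span instead of 3, 47.4% of isolated peaks were on the centromere side. The difference of the median ChIP reads, isolated minus other, was 2.09. A range of -4.62 to 9.75 was formed from opposite ends of the 95% intervals of both medians, so it is wider than a 95% interval. The difference has no settled direction. It was -2.12 at 20000 bp, -0.81 with an FDR of 0 and -1.69 with a log2 ratio of at least 5. It was 2.38 without other peaks of over 1000 ChIP reads, an alternative chosen after seeing the data. Depth limits the fold of most peaks, since the input was under 1 read, by the assumed weight, in 194 of the 327. No paired analysis was possible because there is only 1 ChIP library and 1 input library. The search for STAT92E sites in promoters was not run, because no sequence was used here.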
